A study of Homo sapiens with 4 samples.

Results

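Human mitochondrial DNA carries 37 genes, and all of them were rows of the count table of this experiment, which lists 60554 genes. They were chosen by their chromosome, M in the GRCh38 build, and comprised 13 mRNA genes, 2 rRNA genes and 22 tRNA genes. The cells were IGROV1-R10, an established human ovarian cancer line, transfected at 60 nM with biotin-carrying miR-491-5p or with a biotin-carrying control miRNA. The design text names the control cel-miR-65 for the pull-down and only cel-miR for the input, and these were taken as the same miRNA. Debris and nuclei were spun out of the lysate, 10% of it was kept as the input, and the remainder spent 4 h with streptavidin beads, which were then washed 5 times to give the pull-down. The groups were therefore the miR-491-5p input, the miR-491-5p pull-down, the control input and the control pull-down, and each was 1 library made from the pooled RNA of 3 experiments. With 1 library per group there was no replicate of any group, so the intervals below are 95% intervals of counting error alone, and the reads carry no molecular identifiers that would make them separate molecules.

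The circular genome is transcribed from both strands into long precursor RNAs, which are cut mainly at the tRNAs that lie between the other genes. The mRNAs encode core subunits of the respiratory chain: ND genes belong to complex I, CYTB to complex III, COX genes to complex IV, and ATP6 and ATP8 to the ATP synthase. The rRNAs and tRNAs serve the translation of those mRNAs inside the mitochondrion, where the RNAs are enclosed by membranes in the living cell. By the usual naming, 28 of the genes are heavy-strand genes (12 mRNAs, 2 rRNAs and 14 tRNAs, on the + strand of the table) and 9 are light-strand genes (ND6 and 8 tRNAs, on the - strand).

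The RNA used as bait is shown because every comparison with the control turns on it. Its mature sequence was taken from RefSeq, where it lies at chromosome 9, 20716120 to 20716141, on the + strand of GRCh38.p14, and capitals mark the seed, bases 2 to 8, the stretch by which a microRNA mainly pairs with its targets.
hsa-miR-491-5p: aGUGGGGAacccuuccaugagg
Matches to this seed in the mitochondrial genes were not analysed here.

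The libraries held 47679684 to 62582646 counted reads each, and 12662 genes had a mean normalised count of at least 50 over the 4 libraries, the minimum for a gene to be called measured. Of the mitochondrial genes 19 were measured: the 13 mRNAs, the 2 rRNAs and 4 of the 22 tRNAs. Markers of ovarian carcinoma cells summed to between 15688 and 19941 normalised counts per library and the 4 named of 5 epithelial markers to between 63080 and 130164, with none of either list at 0. The 5 hepatocyte markers summed to 2942 normalised counts in the control input against 7.31 to 21.8 in the other libraries, and the 5 fibroblast markers to 744 and 288 in the control and miR-491-5p inputs against 37.2 and 37.3 in the pull-downs. The 5 immune markers summed to between 16.0 and 70.7. Their part in the results was not tested.

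Mitochondrial genes held a similar part of both inputs and different parts of the pull-downs. They took 1.97% of the counts of the miR-491-5p input (exact binomial interval 1.968 to 1.975%) and 1.97% of the control input (1.966 to 1.974%). In the pull-downs the share was 1.62% with miR-491-5p (1.621 to 1.627%) and 2.58% with the control (2.581 to 2.589%). The bead-bound RNA thus held a lower mitochondrial share than its input in the miR-491-5p transfection and a higher one in the control transfection, each by more than counting error.

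The gene classes divided the mitochondrial counts in similar proportions in the inputs and in other proportions in the pull-downs. The mRNAs made up 91.5% of these counts in the input of the miR-491-5p transfection, 91.9% in the control input, and 95.6% in both pull-downs. The rRNAs made up 7.15% and 6.84% in the inputs and 3.60% and 3.57% in the pull-downs. Whether rRNA was depleted is not given in the sources used here, so these are shares of the libraries and not of the RNA in the cells. The tRNAs made up 1.35% and 1.26% in the inputs and 0.787% and 0.869% in the pull-downs. The share of COX3, a core subunit of complex IV, was 32.5% and 33.0% in the inputs, 50.6% in the miR-491-5p pull-down and 58.1% in the control pull-down. COX1, the catalytic subunit of the same complex, went the other way, with 39.8% and 40.0% in the inputs against 32.0% and 24.4% in those pull-downs. COX2, the third mitochondrial subunit of complex IV, held 8.94% and 8.89% of the inputs and 3.57% and 3.22% of the pull-downs.

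**Figure D1:**
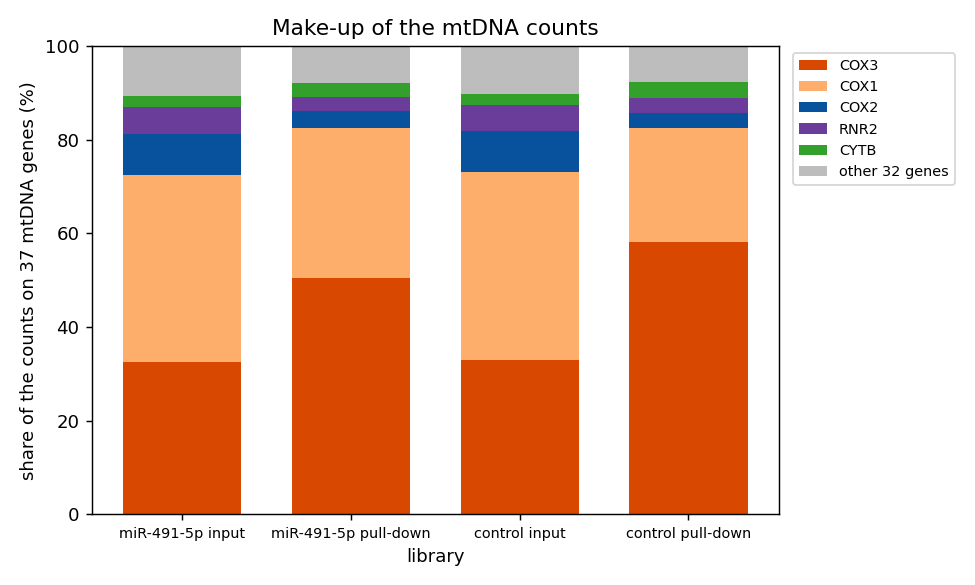
Share of the counts on the 37 mitochondrial genes (percent, vertical axis) held by COX3, COX1, COX2, RNR2, CYTB and the other 32 genes together in each of the 4 libraries (horizontal axis). COX3 takes 32.5% and 33.0% of the inputs but 50.6% and 58.1% of the pull-downs, and the segments of COX1, COX2 and RNR2 are smaller in both pull-downs.

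Levels per kilobase of gene differed widely among the mRNAs. COX3 (M, 9207 to 9990) was highest in every library, at 509312 normalised counts per kilobase in the input of the miR-491-5p transfection, 507702 in that of the control, 522521 in the miR-491-5p pull-down and 1063720 in the control pull-down. COX1 and COX2 came next, at 317009 and 160480 per kilobase in the miR-491-5p input. The lowest levels were those of ND6 and ATP8, the latter at 3099 per kilobase and the former at 2181 in that input. ND6 (M, 14149 to 14673) is the one mRNA of the light strand. The highest level exceeded the lowest by 233-fold and 253-fold in the inputs, by 372-fold in the miR-491-5p pull-down and by 507-fold in the control pull-down, where ATP8 was lowest. Per position at which a read touches 1 gene alone, in place of gene length, the last of these was 324-fold, 318-fold and 311-fold for reads of 50, 75 and 100 bases, with ND6 lowest.

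The order of the 13 mRNAs was the same in both inputs: COX3, COX1, COX2, ATP6, ND3, CYTB, ND4L, ND4, ND1, ND2, ND5, ATP8 and ND6. ND2 and ND5 were nearly level in the miR-491-5p input, at 7977 and 7966 per kilobase, and the spread between replicates that would separate such neighbours is unknown here. In both pull-downs CYTB moved up to the fourth place, from 24484 to 20887 per kilobase with miR-491-5p and from 23378 to 45046 with the control, as ATP6, ND3 and other genes took lower places. The ATP6 level per kilobase was 33594 in the miR-491-5p input and 11234 in its pull-down, against 32754 and 28981 in the control pair, where a pair gives the input first and then the pull-down. ATP6 and ATP8 overlap on the genome (M, 8527 to 9207 and 8366 to 8572), as do ND4L and ND4 (10470 to 10766 and 10760 to 12137). Reads that touch both members of such a pair were left out of the counts, so these levels are uncertain. Reads that fit several places were also left out, which can touch any gene with a copy elsewhere in the genome. Only copies on chromosome 1 were looked at (those of ND1, ND2, COX1, COX2, ATP8, ATP6 and COX3). Copies of the other genes were not searched for. How far the loss of reads that fit several places moved the levels and their order was not tested. The order also depends on how reads that touch 2 genes are allowed for. Per kilobase of positions at which a 100-base read touches 1 gene alone, it changed in the miR-491-5p input. There ATP8 (10183) passed ND2 (8814) and ND5 (8426), and ND4L (29939) passed CYTB (26707).

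**Figure D2:**
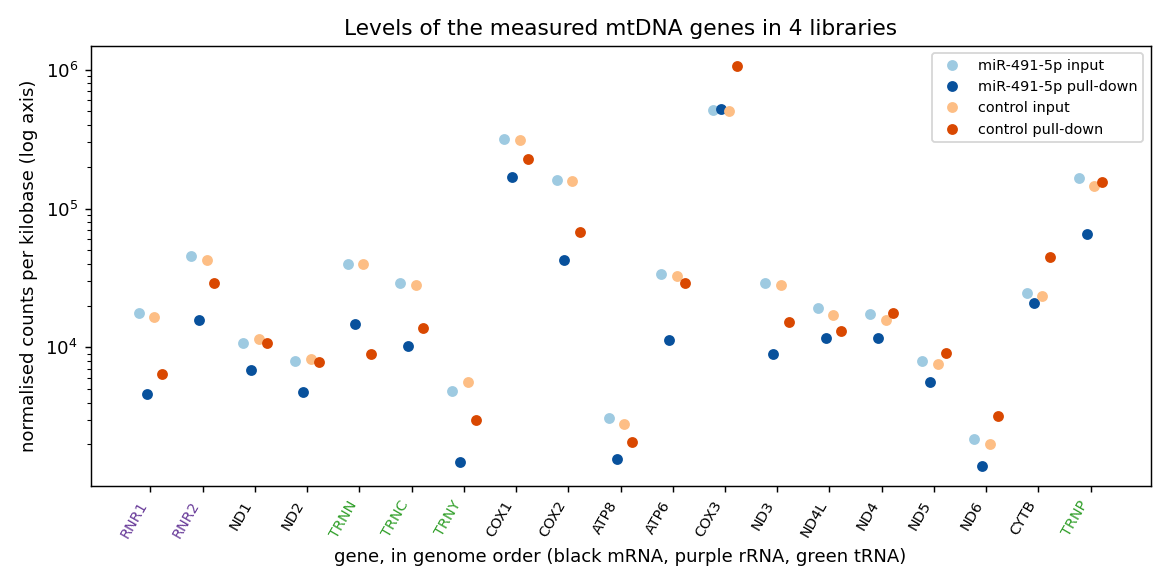
Normalised counts per kilobase (vertical log axis) of the 19 measured mitochondrial genes in genome order (horizontal axis), with 1 point for each of the 4 libraries. The input points of the 2 transfections lie close together for each mRNA, while COX3 stands at 1063720 in the control pull-down. COX2, ND3, RNR1 and RNR2 are lower in both pull-downs than in both inputs, as are COX1, ATP6, ATP8, ND2, ND4L, TRNN, TRNC and TRNY.

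Each pull-down was next set against its own input, which asks what the beads held relative to the lysate they came from. A gene was called where the log2 ratio of normalised counts plus 1 reached 2-fold with an interval that excluded 0. After miR-491-5p, 12 of the 13 mRNAs lay below 0 and 3 of them were called lower and 0 higher, against 4.96% of all measured genes called lower, 5.34% called higher and 60.2% below 0. After the control miRNA, 8 mRNAs lay below 0 and 5 above, with 1 called lower and 1 higher, against 10.0% and 8.61% of all measured genes called so and 57.9% below 0. The mRNA median was -0.71 after miR-491-5p and -0.09 after the control, where the median of all measured genes was -0.15 in both. Scaling by total counts moved that median of all genes to 0.17 and -0.01. Under it 11 and 6 mRNAs lay below 0, as CYTB turned to 0.09 on the miR-491-5p beads and ND1 and ND2 to 0.05 and 0.06 on the control beads. It also turned the calls over all genes from 676 higher and 628 lower to 1314 and 130 on the miR-491-5p beads, and from 1090 and 1268 to 1393 and 821 on the control beads.

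The complex IV mRNAs took up the extremes. COX3 had 399301 normalised counts in the miR-491-5p input and 409657 in its pull-down, against 398038 and 833955 in the control pair. Its log2 pull-down over input was 0.04 (0.03 to 0.04) after miR-491-5p and 1.07 (1.06 to 1.07) after the control, a 2.10-fold higher level on the control beads. Among the mRNAs COX3 alone stood above its input on both sets of beads, where CYTB did so too under total counts. COX2 had 109768 and 28922 normalised counts in the miR-491-5p input and pull-down, and 107215 and 46242 in the control pair. It was 3.80-fold lower on the miR-491-5p beads and 2.32-fold lower on the control beads, the one mRNA called lower on both. COX1 lay between them, with 488829 and 259034 in the miR-491-5p pair and 483157 and 350711 in the control pair, at log2 -0.92 and -0.46. Within a library, the ratio of COX3 to COX2 counts, which does not depend on the scaling between libraries, was 3.64 and 3.71 in the inputs, 14.2 in the miR-491-5p pull-down and 18.0 in the control pull-down.

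Complex I and complex III mRNAs were spread between those values. ND3 had 10102 and 3101 normalised counts in the miR-491-5p input and pull-down, a 3.26-fold lower level, and 9662 and 5264 in the control pair, at log2 -0.88. ND1 and ND2, neighbours at the start of the mRNA-coding part, had -0.66 and -0.74 after miR-491-5p and -0.09 and -0.08 after the control. ND4L had -0.71 and -0.39. The complex III mRNA CYTB (M, 14747 to 15887) had 27936 and 23832 normalised counts in the miR-491-5p input and pull-down, and 26674 and 51398 in the control pair. Its log2 values were -0.23 (-0.25 to -0.21) and 0.95 (0.92 to 0.97). ND4, ND5 and ND6 likewise had opposite signs on the 2 sets of beads, with -0.56, -0.50 and -0.63 after miR-491-5p and 0.17, 0.26 and 0.67 after the control. With TRNP, described below, 5 of the 19 measured genes had such opposite signs with both intervals excluding 0, as had 14.0% of all measured genes.

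The ATP synthase mRNAs differed from each other. ATP6 had 22878 normalised counts in the miR-491-5p input and 7651 in its pull-down, a 2.99-fold lower level. In the control pair it had 22306 and 19736, at log2 -0.18 (-0.21 to -0.15). ATP8 had 642 and 325.0 in the miR-491-5p pair and 586 and 434 in the control pair, at log2 -0.98 (-1.16 to -0.80) and -0.43 (-0.61 to -0.25). ATP6 was thus called on the miR-491-5p beads and not on the control beads, and ATP8 on neither. Across the 13 mRNAs, the values on the 2 sets of beads, which share no library, ran in a similar order (Pearson's r = 0.870, Spearman's rho = 0.923). This is a description across genes, which are not independent replicates and here come from shared precursors and share the same 4 libraries.

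**Figure D3:**
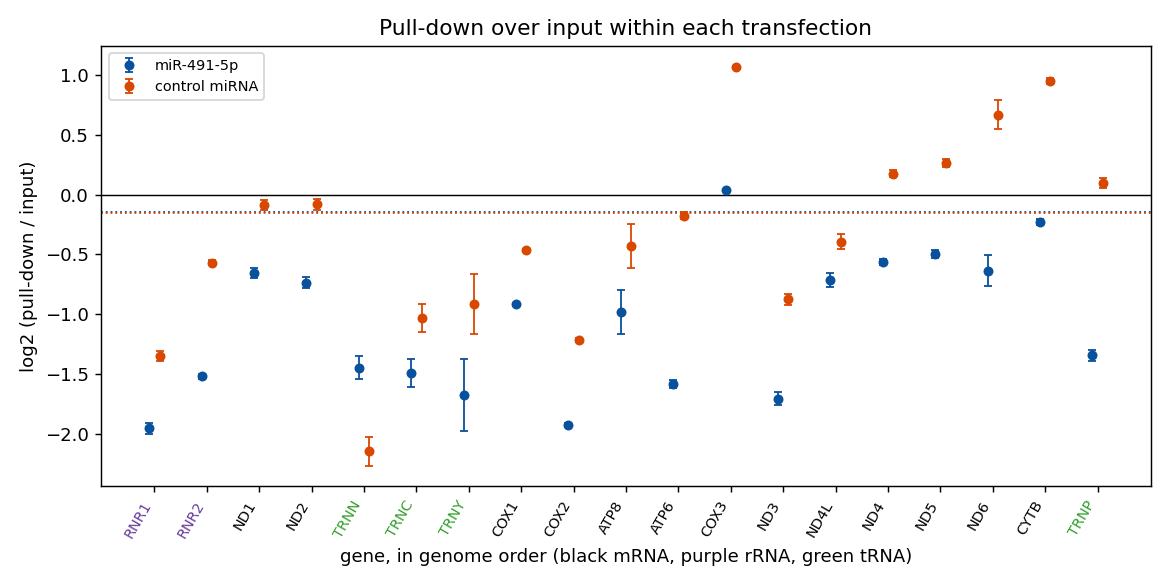
Log2 of pull-down over input (vertical axis) of the 19 measured mitochondrial genes in genome order (horizontal axis) after miR-491-5p and after the control miRNA, with 95% counting intervals as bars and dotted lines at the median of all measured genes, -0.15 in both. The miR-491-5p value is below the control value for every gene except TRNN, and COX3 alone is above 0 in both (under total counts also CYTB).

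Enrichment, defined in the design text as the pull-down ratio between the miRNAs divided by their input ratio, was below 0 for all 13 mRNAs, each with an interval that excluded 0, where 49.9% of all measured genes were below 0 and 35.3% with such an interval. At 2-fold, 4 mRNAs were called lower and 0 higher, against 5.32% and 4.46% of all measured genes. The 4 were ATP6, ND6, CYTB and COX3, with levels 2.65-fold, 2.46-fold, 2.26-fold and 2.04-fold lower. They belong to different complexes and to both strands. The remaining values ran from -0.83 for ND3 to -0.32 for ND4L, with COX1 at -0.45 and COX2 at -0.71. Scaling by total counts left all 13 below 0 and moved the median of all genes from 0.00 to 0.18. Under it 2 mRNAs were called lower, as COX3 came to -0.85 and CYTB to -0.996, just inside the limit, and the calls over all genes changed from 565 higher and 673 lower to 896 and 447.

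The pull-down ratio, which has no input in it although the size factors were estimated over all 4 libraries, gave the same 4 calls. Under total counts 2 were called, as COX3 came to -0.87 and CYTB to -0.95. It was below 0 for all 13 mRNAs, where 49.1% of all measured genes were below 0, and its 4 calls stand beside 3.17% of all genes called lower and 2.50% called higher. ATP6 stood at -1.37 (-1.40 to -1.33), ND6 at -1.18 (-1.29 to -1.06), CYTB at -1.11 (-1.13 to -1.09) and COX3 at -1.03 (-1.03 to -1.02). The smallest was ND4L at -0.16, which came to 0.00 under total counts, where 12 of the 13 remained below 0. The pull-down and enrichment values share the pull-down libraries and are not separate evidence.

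Between the inputs the mRNAs differed little. The log2 ratio of the miR-491-5p to the control input ran from -0.09 for ND1 to 0.16 for ND4L, with 11 of 13 above 0, 2 below and none called, where 0.727% and 0.513% of all genes were called higher and lower and 51.0% were below 0. Under total counts 4 lay below 0, COX1 and COX3 being the added ones. Across these 13 genes the ratio was larger for genes with a higher start coordinate (r = 0.714 and rho = 0.703). This ratio, the enrichment and the bead values were each set against length, start and mean level per kilobase, and this relation was the largest in size. For start, r was -0.507 for the enrichment, 0.270 on the miR-491-5p beads and 0.481 on the control beads. These too are descriptions across genes, and the input ratio rests on 2 libraries.

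**Figure D4:**
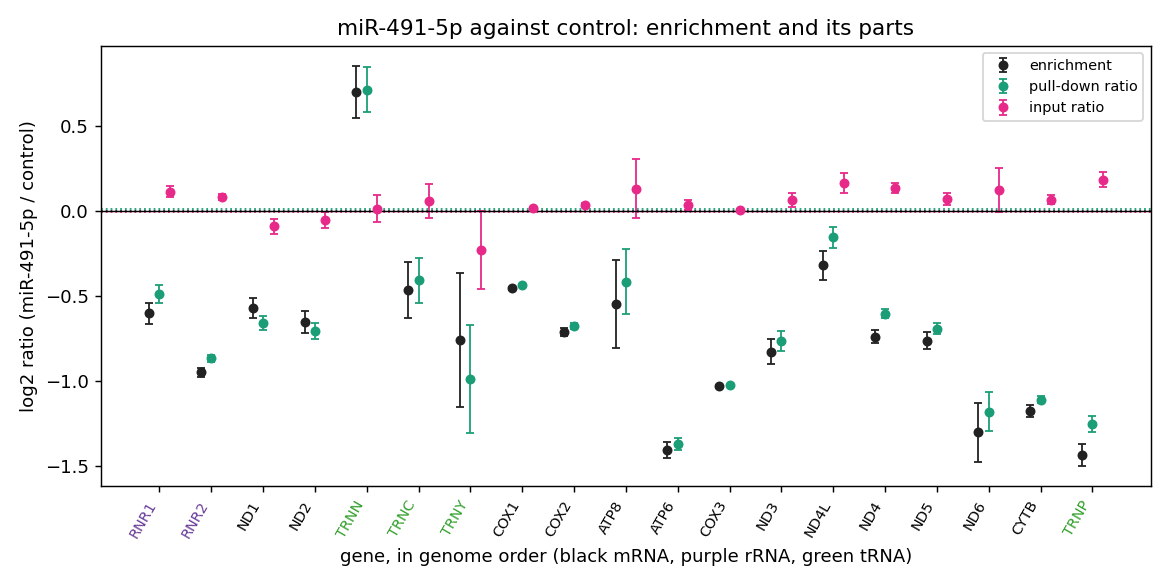
Log2 enrichment, pull-down ratio and input ratio of miR-491-5p over control (vertical axis) for the 19 measured mitochondrial genes in genome order (horizontal axis), with 95% counting intervals as bars and dotted lines at the medians of all measured genes. Every enrichment value except that of TRNN (0.70) is below 0, the lowest being TRNP (-1.43) and ATP6 (-1.40), while the input ratios of the mRNAs stay between -0.09 and 0.16.

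The rRNAs were scarcer on both sets of beads. RNR1 (M, 648 to 1601), the small-subunit rRNA, had 16958 normalised counts in the miR-491-5p input and 4388 in its pull-down, and 15678 and 6155 in the control pair. RNR2 (M, 1671 to 3229), the large-subunit rRNA, had 70752 and 24742 in the miR-491-5p pair and 66885 and 45118 in the control pair. RNR1 was 3.86-fold lower on the miR-491-5p beads and 2.55-fold lower on those of the control, and both were called. RNR2 was 2.86-fold lower after miR-491-5p and 1.48-fold lower after the control, and only the first was called. Both rRNAs are cut from the same precursor. The ratio of RNR2 to RNR1 counts within a library was 4.17 and 4.27 in the inputs, 5.64 in the miR-491-5p pull-down and 7.33 in that of the control. Their enrichment was -0.60 (-0.66 to -0.54) and -0.95 (-0.97 to -0.92), inside the 2-fold limit. Summed by class, the enrichment was -0.84 for mRNAs, -0.90 for rRNAs and -1.10 for tRNAs. The classes lay further apart on the beads, at -0.54, -1.59 and -1.38 after miR-491-5p and 0.31, -0.69 and -0.28 after the control. Each class sum leans on its most abundant genes, COX3 and COX1 among the mRNAs and TRNP among the tRNAs. The median enrichment of the 4 measured tRNAs was -0.61, nearer to 0 than the -0.74 of the mRNAs, so the order of these classes turns with the summary used.

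Among tRNAs, the counts lay almost wholly on genes of the light strand. The 8 light-strand tRNAs together had 15766 and 7829 counts in the miR-491-5p pair, and 11733 and 13953 in the control pair. The 14 heavy-strand tRNAs together had 106, 58, 72 and 107 counts in the same libraries, and none of them was measured. Light-strand genes thus held between 99.2% and 99.4% of the tRNA counts in each library. TRNI and TRNS2 of the heavy strand and TRNQ of the light strand were at 0 in every library. TRNE of the light strand was just under the minimum, with 32, 27, 31 and 77 counts.

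How a read could be counted differed greatly among these short genes. Reads that touched more than 1 gene were left out, and most tRNA genes abut another gene. For a 50-base read, the number of positions touching 1 gene alone was 10 to 71 for the heavy-strand tRNAs (median 20) and 21 to 70 for the light-strand tRNAs (median 28). For a 100-base read it was 0 for 13 of the 14 heavy-strand and 6 of the 8 light-strand tRNAs. TRNC and TRNY were among the latter, yet had 842 to 1833 and 123 to 305 counts per library. The read length is not given in the sources used here. Over the 22 tRNAs, log2 level and positions for a 50-base read went together (r = 0.802, rho = 0.816), as a description across genes. The values were r = 0.691 and rho = 0.762 for 75 bases and r = 0.493 and rho = 0.524 for 100 bases.

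The proline and phenylalanine tRNAs flank the non-coding control region on either side, and they had almost equal room for reads, at 70 and 71 positions. TRNP (M, 15956 to 16023, light strand) had 10770 and 5489 counts in the miR-491-5p pair and 7709 and 11892 in the control pair. TRNF (M, 577 to 647, heavy strand) had 39, 17, 38 and 40. Counting took no account of strand, so a read over a light-strand tRNA may come from the precursor of either strand, and so may a read over ND6. Positions that could be counted were also not checked against the sequence itself.

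The 4 measured tRNAs were each at least 2-fold lower on the miR-491-5p beads, where 4.96% of all measured genes were called lower. TRNP was 2.54-fold lower there but at log2 0.09 (0.05 to 0.13) after the control, and its enrichment of -1.43 (-1.50 to -1.37) was the lowest of the measured mitochondrial genes. TRNN, the asparagine tRNA, had 2922 and 1073 normalised counts in the miR-491-5p input and pull-down and 2895 and 654.5 in the control pair. It was 2.72-fold lower on the miR-491-5p beads and 4.42-fold lower on the control beads, so its enrichment was 0.70 (0.55 to 0.85), the one positive value among the 19. TRNC, the cysteine tRNA, had 1915 and 681 normalised counts in the miR-491-5p pair and 1843 and 903 in the control pair, with an enrichment of -0.46. TRNY, the tyrosine tRNA, had 319, 99.5, 374 and 198 in the same order, with an enrichment of -0.76 (-1.15 to -0.36). TRNC and TRNY share a base (5826) on the table's coordinates. As sums, the light-strand genes had an enrichment of -1.12 and the heavy-strand genes of -0.85, but TRNP carries most of the light-strand counts. The medians of the 5 measured light-strand and 14 measured heavy-strand genes were -0.76 and -0.72. The former were the 4 tRNAs and ND6, and the latter were mRNAs and rRNAs only. Strand and class therefore cannot be told apart in these medians or in the sums. ND6, at -1.30, was the lowest mRNA after ATP6, but with 1 mRNA on the light strand a difference between strands among mRNAs cannot be tested.

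**Figure D5:**
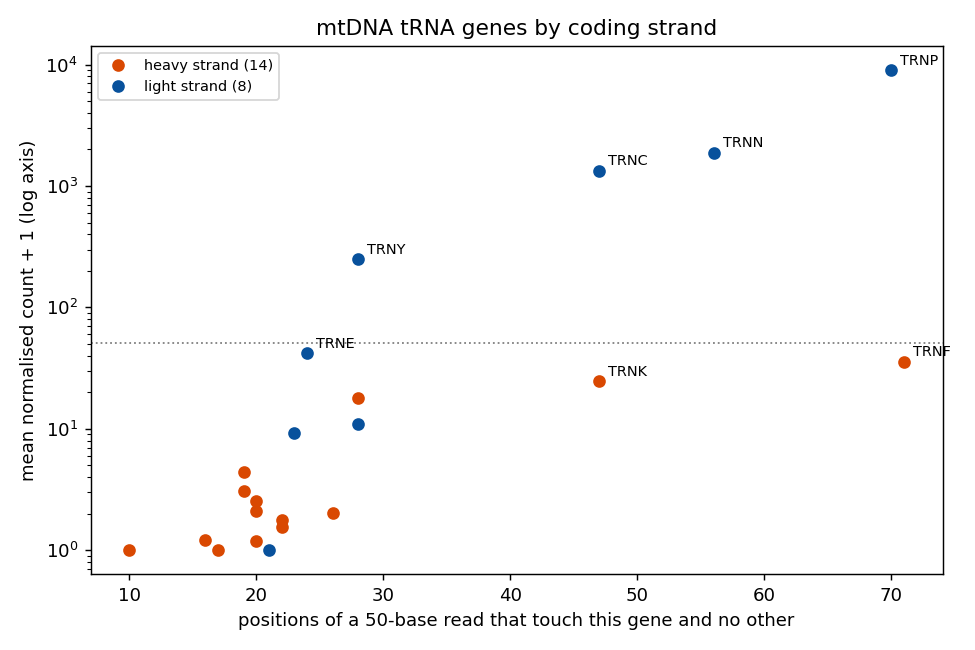
Mean normalised count plus 1 over the 4 libraries (vertical log axis) of the 22 mitochondrial tRNA genes against the number of positions at which a 50-base read touches that gene and no other (horizontal axis), coloured by strand, with a dotted line at the minimum of 50 used to call a gene measured. The 4 genes above the line, TRNP, TRNN, TRNC and TRNY, are all on the light strand, and TRNF lies below it with 71 positions against 70 for TRNP.

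Pull-down against input was tested over both transfections with edgeR's quasi-likelihood test, the transfection as a block and Benjamini-Hochberg adjustment over the 12662 genes. The 2 pairs carry different miRNAs. The test asks whether the average difference between beads and input over the 2 pairs departs from 0, and it does not require a difference in each pair. It rests on 1 residual degree of freedom. At an adjusted p under 0.05, 6 of the 19 measured mitochondrial genes fell and 0 rose, where 5.09% of all genes fell and 6.82% rose. At an unadjusted p under 0.05 edgeR had 7 lower and 0 higher, where it had 1937 lower and 2128 higher among all 12662. DESeq2 called 7 lower and 0 higher after adjustment, and 697 and 929 among all genes. The 6 were COX2 and ND3 among the mRNAs, RNR1, and the tRNAs TRNN, TRNC and TRNY. The log2 change was -1.42 for COX2 (edgeR adjusted p = 0.0274), -1.14 for ND3 (0.0319) and -1.50 for RNR1 (0.0188). It was -1.65 for TRNN (edgeR adjusted p = 0.0139), -1.11 for TRNC (0.0274) and -1.14 for TRNY (0.0466), each lower in both pairs. RNR2 missed the threshold at -0.89 (edgeR adjusted p = 0.0898), and COX3 had 0.70 (0.229), CYTB 0.51 (0.312) and ATP6 -0.73 (0.180), values that do not show an absence of change. TRNY lost its call without the block (edgeR adjusted p = 0.0920) and without TMM scaling (0.0639), and RNR2 gained one with DESeq2 (adjusted p = 0.0402). With edgeR's filterByExpr in place of the count minimum, RNR2 (edgeR adjusted p = 0.0232) and TRNA (0.0440) were also called, which made 8 lower of 24 mitochondrial genes tested.

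Nuclear copies of mitochondrial DNA can share reads with their source, and a block of them lies on chromosome 1. The copy of ND2, MTND2P28, had 302 and 408 counts in the miR-491-5p pair and 260 and 621 in the control pair. That was 3.66% and 3.74% of the counts of the pair it forms with ND2 in the inputs, and 6.20% and 6.35% in the pull-downs. MTATP6P1 had 923, 416, 789 and 942 counts in the same libraries, 4.04% to 4.35% of its pair with ATP6, and MTCO1P12 had 737, 453, 601 and 707, at most 0.179% of its pair with COX1. MTCO3P12 had 38, 54, 30 and 222 counts. MTCO2P12 had at most 30, MTND1P23 at most 4, and MTATP8P1 0 in all libraries. The enrichment of the measured copies, -0.66 for MTND2P28, -0.77 for MTCO1P12, -1.24 for MTATP6P1 and -2.19 (-3.00 to -1.38) for MTCO3P12, stands beside -0.65, -0.45, -1.40 and -1.03 for ND2, COX1, ATP6 and COX3. Reads that fit several places were left out, so the counts of each near-identical pair are uncertain, and how they divide between the copies was not tested.

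The lists of nuclear genes, chiefly those that make, process and translate these RNAs, had median enrichments nearer to 0 or above it. The list of the mitochondrial RNA machinery also holds genes for copying mitochondrial DNA. Of its 48 genes 46 were measured, with a median enrichment of 0.10. In it 0 were called higher and 2 lower, where 4.46% and 5.32% of all measured genes were called so. Those 2 were the rRNA methyltransferase MRM1 (-1.83) and TRMT10C (-1.17), a subunit of the mitochondrial RNase P that cuts tRNA ends. FASTK had 0.93, the mitochondrial RNA polymerase POLRMT 0.64 (1453 and 1619 normalised counts in the miR-491-5p pair, 1640 and 1170 in the control pair), the packaging factor TFAM -0.80, and LRPPRC, which stabilises mitochondrial mRNAs, 0.03. The list of translation factors also holds genes for the assembly of complex IV, SCO2 among them, and the membrane insertase OXA1L. All 21 of its genes were measured, with a median of -0.08 and 0 called in either direction. That median turned to 0.10 under total counts. The largest values in this list were 0.84 for the copper chaperone SCO2, -0.79 (-1.63 to 0.05) for MSS51 and 0.60 for OXA1L.

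Proteins of the mitochondrial ribosome and the enzymes that charge the tRNAs were encoded by mRNAs with medians above 0. Of 77 listed ribosomal proteins 70 were measured, with a median enrichment of 0.27, 1 called higher (MRPS18A, 1.07) and 2 lower (MRPS35, -1.93, and MRPL33, -1.83), against the same 4.46% and 5.32%. On the beads their medians were -0.69 after miR-491-5p and -0.92 after the control, and in the edgeR test 13 of 70 fell and 0 rose, where 5.09% of all genes fell and 6.82% rose. All 22 listed aminoacyl-tRNA synthetases and partners were measured, with a median of 0.20 and 1 called lower, the asparaginyl-tRNA synthetase NARS2 (-2.62), beside -0.83 for GATC and -0.71 for HARS2. In the edgeR test 3 of the 46 genes in the RNA machinery list fell and 0 rose, against those same shares. Of the translation factor list and the synthetases 0 passed the threshold. At an unadjusted p under 0.05 edgeR had 0 higher and 4 lower of the RNA machinery list and 1 and 6 of the translation factor list. In the same order it had 1 and 45 of the ribosomal proteins and 0 and 4 of the synthetases. Among all 12662 measured genes edgeR had 2128 higher and 1937 lower at that unadjusted p. DESeq2 called 0 higher in these lists, and 3, 1, 16 and 0 lower. Among all measured genes it called 929 higher and 697 lower. NARS2 and MRPS35 also differed between the inputs, at 1.30 and 0.81. The medians of these nuclear lists and of the mitochondrial mRNAs (-0.74) are descriptions, with no test between them.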

How the data were processed

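Whole-number read counts per gene were used as the authors deposited them. Per the file headers they were made with featureCounts 1.5.0-p1 on GENCODE 24, unstranded, without reads marked as duplicates, fitting several places or touching several genes. Per the submitters' processing notes, STAR and DESeq2 1.10.1 were used with GRCh38. Read length and rRNA depletion are not given in the sources used here. Groups came from the sample titles.

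Counts were divided by DESeq2 1.42.0 size factors (0.957 and 1.24 for the miR-491-5p input and pull-down, 0.778 and 1.13 for the control pair). Log2 ratios used normalised counts plus 1, and intervals are 1.96 standard errors of the counts plus 0.5 on each side. Shares have exact binomial intervals. The test was edgeR 4.0.16 (R 4.3.3), checked on simulated counts in which 200 genes changed 4-fold and alike in both pairs. There it recovered 99.5% of the changed genes and called 0.0722% of the unchanged ones. The noise between the simulated libraries was set by choice and not taken from these data, and both rates depend on it. That check does not cover genes whose change differs between the pairs. Genes were named by RefSeq position on GRCh38.p14 (39447 of 60554). All mitochondrial mRNAs and rRNAs, the measured tRNAs, the 7 copies on chromosome 1, POLRMT, TFAM, LRPPRC and the 3 largest absolute enrichments of each nuclear list are named. TRNF, TRNE, TRNI, TRNS2, TRNQ and TRNA were chosen after their values were seen. SLIRP, also in the rule, was not matched by position. The genes, lists, tests and alternatives (normalisation, pseudocount, count minimum, test settings, countable positions) were chosen with earlier results of these data known. No mitochondrial genome sequence was used, so seed matches and exact nuclear copies were not analysed here.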

Additional observations from a re-analysis of the deposited data

Results flagged for a closer look

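For 5 of the 19 measured mitochondrial genes, pull-down over input lay on opposite sides of 0 in the 2 transfections with both counting intervals excluding 0, against 14.0% of all measured genes. Each transfection has 1 pair of libraries, and the difference was not tested. CYTB had log2 -0.23 after miR-491-5p and 0.95 after the control. ND6 had -0.63 and 0.67. ND5 had -0.50 and 0.26, and ND4 -0.56 and 0.17. TRNP had -1.34 and 0.092. The set changes with the scaling. Under total counts CYTB turned to 0.09 on the miR-491-5p beads, while ND1 (-0.34 and 0.05) and ND2 (-0.42 and 0.06) came to have opposite signs.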

How the results depend on the processing

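Under total counts per library, the mRNA median was -0.56 for the enrichment, -0.54 for the pull-down ratio, -0.39 on the miR-491-5p beads and 0.053 on the control beads. Under it 2 mRNAs were called lower in the enrichment and 2 in the pull-down ratio, 4 lay below 0 between the inputs and 2 were called higher on the control beads. Total counts without the mitochondrial genes gave medians of -0.57, -0.55, -0.40 and 0.062, with 3 called lower in the enrichment, as COX3 came to -0.865, 2 lower in the pull-down ratio, 4 below 0 between the inputs and 2 higher on the control beads. TMM factors and a pseudocount of 5 left these counts of mRNAs as they were. Without a count minimum, 1204 genes were called higher and 1237 lower in the enrichment, 1168 and 1187 in the pull-down ratio, 473 and 438 between the inputs, 2546 and 1020 on the miR-491-5p beads and 2689 and 1815 on the control beads. With a minimum of 200 they were 355 and 507, 180 and 317, 30 and 23, 325 and 493, and 696 and 1025.

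In edgeR, 427 of all genes fell without TMM, and 1532 fell and 1452 rose with filterByExpr, which tested 18050 genes and 24 mitochondrial ones. ND4 turned to 0.037 without TMM and ND5 to -0.094 with filterByExpr, neither called in any setting. The share of mitochondrial genes without the 2 rRNA genes was 1.83% in the input and 1.57% in the pull-down of miR-491-5p, and 1.84% and 2.49% in the control pair. By countable positions, the highest over the lowest mRNA came to 222 (75-base reads) and 217 (100-base) in the miR-491-5p input, 353 and 346 in its pull-down and 241 and 236 in the control input. In the control pull-down it was 324, 318 and 311 for reads of 50, 75 and 100 bases, where ND6 in place of ATP8 was lowest.

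Beyond the edgeR fit, whose block is the transfection, no paired analysis was possible because each group has 1 library. For the same reason no replicate was left out, and the planned seed search and the search for exact nuclear copies were not run. Counting error was small for mRNAs, and the spread between experiments, pooled here, is unknown.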
